A study of Homo sapiens with 12 samples.

Results

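The 6 mature miRNAs examined belong to the miR-99, miR-100 and miR-125 families and are hsa-miR-99a-5p, hsa-miR-99b-5p, hsa-miR-99b-3p, hsa-miR-100-5p, hsa-miR-125a-5p and hsa-miR-125b-5p, written below without the species prefix. They were chosen by name and are 6 of the 2652 mature miRNAs counted in the SLAMseq tables and 6 of the 143 miRNAs of the Initial miRNA Dataset, which holds the miRNAs over 100 CPM (reads scaled to a common library size) in all 12 libraries that are also in the curated database MirGeneDB. The cells were Huh7, a human hepatocellular carcinoma line. In the Control condition they received DMSO without 4-thiouridine (4SU), in the DMSO condition DMSO with 500 µM 4SU, and in the PlaB condition the SF3B1 inhibitor pladienolide B with 500 µM 4SU, in each case for 4 h and in 4 libraries. The labels give 500 µM for PlaB as well, whereas the study's methods give a far lower concentration for its PlaB treatments. For its samples DMSO A and DMSO B the study combined 3 sequencing runs. These were of the first library, of a newly prepared one and of the first after further amplification. The labels do not use these letters. A and B were taken to be DMSO replicates 1 and 2, the 2 libraries with the most reads. 4SU built into new RNA is read as C after chemical conversion, so the T>C conversion rate, the T>C conversions divided by the covered T positions, tracks recently made miRNA, while CPM tracks the total amount.

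A miRNA is cut from a hairpin in a long primary transcript by the Microprocessor complex and then by Dicer, and either the 5p or the 3p arm of the duplex is loaded into Argonaute as the guide. Bases 2 to 8 of the mature miRNA, the seed, pair with target mRNAs. In vertebrates the miR-99/100 and miR-125 hairpins lie with a let-7 hairpin in small clusters that arose by duplication of the genome, and the let-7, miR-100 and miR-125 cluster is among the oldest in animals. Known targets of miR-99 and miR-100 include mTOR, and miR-125 is the vertebrate counterpart of lin-4, the first miRNA described in worms.

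The mature sequences are shown because the members fall into seed families that cross the genomic loci, and because the number of U residues sets how many positions of a read can convert. They are from RefSeq on GRCh38.p14, 5′ to 3′, with the seed in capitals.
miR-99a-5p: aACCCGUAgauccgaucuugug
miR-99b-5p: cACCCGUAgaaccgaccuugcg
miR-100-5p: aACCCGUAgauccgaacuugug
miR-99b-3p: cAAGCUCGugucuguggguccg
miR-125a-5p: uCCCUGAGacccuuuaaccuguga
miR-125b-5p: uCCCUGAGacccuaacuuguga
The seed ACCCGUA is shared by miR-99a-5p, miR-99b-5p and miR-100-5p, and the seed CCCUGAG by miR-125a-5p and miR-125b-5p. The seed of miR-99b-3p, the opposite arm of the mir-99b hairpin, belongs to neither group. Counted from the 5′ end, miR-100-5p differs from miR-99a-5p by the single substitution A16U, and miR-99a-5p from miR-99b-5p by A1C, U11A, U16C and U21C. miR-125a-5p has 24 bases and miR-125b-5p 22, at an edit distance of 3. A full read of miR-99b-5p holds 3 U residues, against 5 in miR-100-5p, 6 in miR-99a-5p, miR-99b-3p and miR-125b-5p and 7 in miR-125a-5p.

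In the GENCODE version 44 annotation of GRCh38 the members come from 3 clusters. MIR99B (chr19:51692612-51692681) and MIR125A (chr19:51693254-51693339) lie with MIRLET7E within 728 bp on the plus strand, inside the protein-coding gene SPACA6, 4.27 kb and 4.91 kb from the start of its annotated span. Of the 15 annotated SPACA6 transcripts, 2 span these hairpins, and both have them in an intron, while the study's own annotation lists them as exonic. MIR99A (chr21:16539089-16539169) and MIR125B2 (chr21:16590237-16590325) lie with MIRLET7C in the lncRNA gene MIR99AHG, 611 kb and 662 kb from its start in a gene of 718 kb. MIR100 (chr11:122152229-122152308) and MIR125B1 (chr11:122099757-122099844) lie with MIRLET7A2 on the minus strand of the lncRNA gene MIR100HG, 404 kb and 457 kb from its start in a gene of 528 kb. MIR99A, MIR100 and MIR125B1 were intronic in all annotated transcripts that span them, and MIR125B2 in all but 1 of 126.

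miR-125b-5p is encoded at both lncRNA loci with the same mature sequence, so its signal cannot be assigned to either gene. Its entry in the tables has a length of 44 and 12 T positions, and 99.3% to 99.8% of its reads were counted as mapping to several places. Its multi-mapping reads and its conversions were even numbers in all 12 libraries, as they would be if each read was counted once at each locus. Counted once, its mean CPM came to 1289 for Control, 1301 for DMSO and 1231 for PlaB (deposited, doubled values are given hereafter), and its T>C rate was not altered because conversions and covered positions were counted alike. For the other 5 members at most 0.929% of reads were multi-mapping in any library, although miR-99a-5p and miR-100-5p differ by 1 base.

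Total reads on miRNAs ranged from 1522210 to 3880241 per library, of which the 6 members held 1.76% to 2.44%. The liver miRNA miR-122-5p stood at 55353 to 105331 CPM, and of 8 markers of blood, stroma, muscle and neurons, miR-143-3p (43.0 to 137 CPM) and miR-145-5p (21.98 to 48.7 CPM) were above 5 CPM and the other 6 at or near 0. The libraries are bulk RNA, in which fewer molecules per cell and fewer cells with the molecule cannot be told apart. CPM values are compared between members as reads per mature miRNA, whose lengths are 22 or 24 bases.

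The amounts of the members were close in all 3 conditions. miR-99b-5p, from the SPACA6 locus, had 6852, 6609, 6610 and 6081 CPM in Control replicates 1 to 4, 8549, 6788, 6308 and 6065 in DMSO, and 7607, 6508, 6499 and 7093 in PlaB. miR-125a-5p, from the same locus, had 7140, 6493, 6513 and 6627 CPM in Control, 9104, 6626, 6247 and 6414 in DMSO, and 7601, 6369, 6368 and 6462 in PlaB. For both, replicate 1 was the highest library of each condition and the conditions overlapped.

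Of the lncRNA-hosted members, miR-99a-5p had 1672, 2421, 2680 and 2548 CPM in Control, 2402, 2807, 2723 and 2565 in DMSO, and 2293, 1808, 2018 and 2529 in PlaB. miR-100-5p had 886, 797, 920 and 902 CPM in Control, 1111, 795, 780 and 826 in DMSO, and 932, 729, 798 and 917 in PlaB. miR-125b-5p had 2741, 2171, 2639 and 2724 CPM in Control, 3058, 2251, 2432 and 2621 in DMSO, and 2699, 2027, 2396 and 2677 in PlaB. In all 3 the ranges of the conditions overlapped, and replicate 1 of DMSO was the highest library of miR-100-5p and miR-125b-5p.

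miR-99b-3p, the less abundant arm of mir-99b, had 324, 200, 246 and 227 CPM in Control, 212, 170, 143 and 189 in DMSO, and 259, 163, 152 and 195 in PlaB. Its DMSO library lay below the Control library of the same replicate number in all 4 experiments, although the ranges overlapped. The mean fell from 249 ± 53.6 to 179 ± 29.3 CPM (SD, n = 4 each).

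No member passed the test of read counts, edgeR's quasi-likelihood test with Benjamini-Hochberg adjustment over the 143 miRNAs, in any comparison. Of all 143 miRNAs 4.2% passed between DMSO and Control, 0.699% between PlaB and DMSO, and 3.5% between PlaB and Control. At an unadjusted p under 0.05 the count of members was 1, 0 and 0, and DESeq2 also called 0 in each. The member with the larger difference, miR-99b-3p, had a log2 fold change of -0.46 (SE 0.174) in DMSO against Control, with an adjusted p of 0.222. With the replicate number as a block its adjusted p by edgeR was 0.0161, so that the call depends on the pairing. Among the other 5 members the log2 fold changes between conditions lay from -0.30, for miR-99a-5p in PlaB against DMSO (SE 0.151, adjusted p = 0.921), to 0.19, for miR-99a-5p in DMSO against Control (SE 0.150, adjusted p = 0.590).

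In order of mean CPM in DMSO the members were miR-125a-5p (7097 ± 1347), miR-99b-5p (6928 ± 1122), miR-99a-5p (2624 ± 179), miR-125b-5p (2590 ± 346), miR-100-5p (878 ± 156) and miR-99b-3p (179 ± 29.3, SD, n = 4 each). The ranges of miR-125a-5p and miR-99b-5p overlapped in all 3 conditions, as did those of miR-99a-5p and miR-125b-5p, whereas the other neighbours in this order were apart in every library. Counted once, miR-125b-5p stood between miR-99a-5p and miR-100-5p, at 1301 ± 173 CPM in DMSO. The most abundant member of each seed family was thus the one from the SPACA6 locus.

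Labelling with 4SU was measured in all 6 members. Without 4SU the mean T>C rate, the background of the measurement, lay between 0.0260% for miR-125a-5p and 0.0853% for miR-125b-5p. With 4SU, in the DMSO condition, all 6 members were called above Control, against 82.5% of the 143 miRNAs. The median log2 difference was 3.49 over the members and 3.16 over the 143 miRNAs.

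miR-99b-5p had T>C rates of 0.0321%, 0.0548%, 0.0167% and 0.0230% in Control, 0.536%, 0.595%, 0.617% and 0.564% in DMSO, and 0.389%, 0.380%, 0.338% and 0.347% in PlaB. miR-125a-5p had 0.0277%, 0.0314%, 0.0206% and 0.0245% in Control, 0.312%, 0.300%, 0.297% and 0.259% in DMSO, and 0.180%, 0.162%, 0.133% and 0.123% in PlaB. In both, the 3 conditions did not overlap, with PlaB between Control and DMSO.

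miR-99a-5p had rates of 0.0598%, 0.0432%, 0.0447% and 0.0438% in Control, 0.539%, 0.488%, 0.547% and 0.436% in DMSO, and 0.220%, 0.271%, 0.166% and 0.197% in PlaB. miR-125b-5p had 0.0367%, 0.0516%, 0.196% and 0.0567% in Control, 0.912%, 1.14%, 0.931% and 0.863% in DMSO, and 0.342%, 0.367%, 0.238% and 0.504% in PlaB. These 2 members also fell into 3 separate ranges, and Control replicate 3 of miR-125b-5p came close to the lowest PlaB library. miR-100-5p had 0.0271%, 0%, 0.0603% and 0.0186% in Control, 0.270%, 0.293%, 0.140% and 0.394% in DMSO, and 0.0141%, 0.139%, 0.0159% and 0.160% in PlaB. Its PlaB libraries 1 and 3 lay at the level of Control, while library 2 lay just below and library 4 above its lowest DMSO library.

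miR-99b-3p had rates of 0%, 0.105%, 0% and 0.0308% in Control, 0.688%, 0.390%, 0.458% and 0.492% in DMSO, and 0.0423%, 0.103%, 0.137% and 0.179% in PlaB. All its DMSO libraries were above all others, and PlaB overlapped Control. These rates rest on few events: 4 conversions in the 4 Control libraries together, 66 in DMSO and 9 in PlaB. The Wilson 95% interval of the DMSO replicate 1 rate was 0.493% to 0.959% and that of PlaB replicate 4 was 0.0695% to 0.459%. A count of 0 allowed a rate of up to 0.0924% in Control replicate 1. For miR-100-5p, PlaB replicates 1 and 3 held 1 conversion each, and the interval of PlaB replicate 1, 0.00249% to 0.0800%, did not overlap that of PlaB replicate 4, 0.0955% to 0.269%. Intervals and limits cover counting error only.

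**Figure D1:**
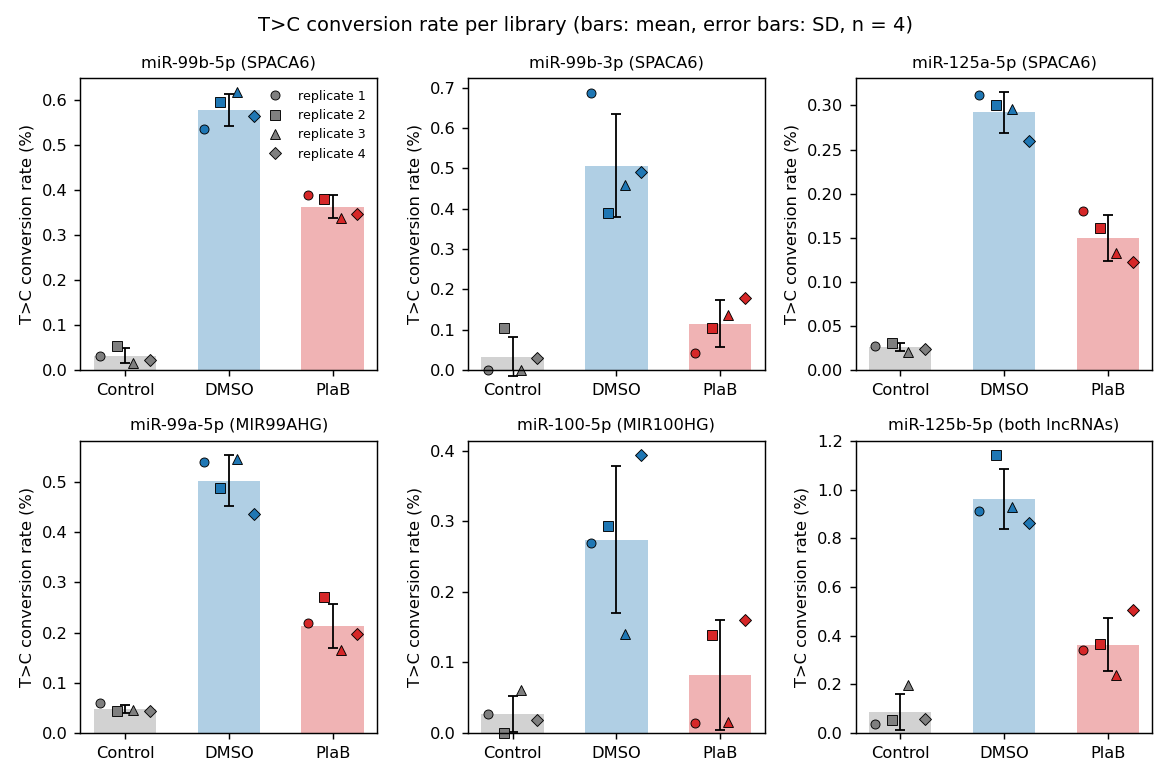
T>C conversion rate in percent of covered T positions, for each member and library, with Control in grey, DMSO in blue and PlaB in red. Bars are means, error bars are SD (n = 4), symbols mark the replicate number, and the host gene is in brackets. Rates are highest in DMSO in all 6 panels, and in miR-100-5p the PlaB libraries split into 2 at 0.0141% and 0.0159% and 2 at 0.139% and 0.160%.

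In DMSO against Control, edgeR's quasi-likelihood test gave log2 fold changes of 4.15 (SE 0.293, adjusted p = 1.07e-18) for miR-99b-5p, 3.48 (SE 0.258, adjusted p = 6.66e-18) for miR-125a-5p and 3.41 (SE 0.304, adjusted p = 5.83e-15) for miR-99a-5p. For miR-125b-5p it was 3.51 (SE 0.319, adjusted p = 1.25e-14), for miR-100-5p 3.36 (SE 0.751, adjusted p = 7.48e-05) and for miR-99b-3p 3.76 (SE 0.975, adjusted p = 5.34e-04). All 6 calls held under every alternative fitted.

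The order of labelling was not the order of abundance. miR-125b-5p had the highest rate in DMSO (0.962% ± 0.124, SD, n = 4), above miR-99b-5p (0.578% ± 0.0356) in every library. The rates of miR-99b-5p, miR-99b-3p (0.507% ± 0.128) and miR-99a-5p (0.502% ± 0.0512) overlapped. Those of miR-125a-5p (0.292% ± 0.0229) and miR-100-5p (0.274% ± 0.105) had lower means and overlapped each other, and the highest miR-100-5p library reached the lowest of miR-99b-3p. Among the 143 miRNAs, with a median rate of 0.187%, miR-125b-5p ranked 12, miR-99b-5p 23, miR-99b-3p 27, miR-99a-5p 29, miR-125a-5p 45 and miR-100-5p 48 from the highest. Per read instead of per T, 5.36% ± 0.587 of the miR-125b-5p reads carried a T>C conversion, 2.61% ± 0.229 of those of miR-99a-5p, 2.01% ± 0.147 of miR-125a-5p and 1.73% ± 0.109 of miR-99b-5p. For miR-125b-5p the converted reads of PlaB came to 311, an odd number. Its converted reads may therefore not be counted at both loci as its reads and conversions appear to be, and its per-read share is uncertain. miR-99b-5p, with 3 U residues, moved from rank 23 to 46 on this scale and miR-125a-5p, with 7, from 45 to 38.

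All 6 members were less labelled in PlaB than in DMSO by edgeR's quasi-likelihood test, where 48.3% of the 143 miRNAs were called lower. The 4 PlaB libraries lay below the 4 DMSO libraries in 5 of the 6 members, against 46.2% of the 143 miRNAs, the exception being miR-100-5p. The median log2 difference was -1.32 over the members and -1.23 over the 143 miRNAs. miR-99b-5p had the smallest difference, -0.67 on the log2 scale (SE 0.238, adjusted p = 0.0185), that is 0.629 times the DMSO rate. miR-125a-5p followed with -0.97 (SE 0.225, adjusted p = 3.44e-04), or 0.511 times.

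The lncRNA-hosted members had larger estimates. miR-99a-5p changed by -1.23 (SE 0.263, adjusted p = 1.18e-04), miR-125b-5p by -1.40 (SE 0.283, adjusted p = 5.69e-05) and miR-100-5p by -1.68 (SE 0.659, adjusted p = 0.0314) on the log2 scale. The largest estimate was that of miR-99b-3p, with -2.12 (SE 0.890, adjusted p = 0.0430), from the same hairpin as miR-99b-5p.

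The calls of miR-125a-5p, miR-99a-5p and miR-125b-5p held under every alternative. That of miR-99b-3p did not hold with a replicate block (adjusted p = 0.0754) or on leaving out any single DMSO library or PlaB replicate 1, 2 or 3 (adjusted p from 0.0541 to 0.119). That of miR-100-5p was lost without DMSO replicate 1, 2 or 4 or PlaB replicate 1 or 3 (adjusted p from 0.0621 to 0.0946). Without DMSO replicates 1 and 2 together, the 2 deeper libraries, miR-99b-5p (adjusted p = 0.0862), miR-100-5p and miR-99b-3p were not called. The same 3 of the 6 members were not called without a filter on low counts or over the 503 miRNAs passing edgeR's expression filter. In the latter fit 12.3% of the 503 were called lower. The edgeR adjusted p there was 0.0775 for miR-99b-5p, 0.0749 for miR-100-5p and 0.126 for miR-99b-3p.

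In PlaB against Control, labelling remained above background in 4 of the 6 members, against 53.8% of the 143 miRNAs called higher. These were miR-99b-5p, which differed by 3.48 on the log2 scale (SE 0.293, adjusted p = 1.80e-15), miR-125a-5p with 2.51 (SE 0.257, adjusted p = 1.84e-12), miR-99a-5p with 2.18 (SE 0.311, adjusted p = 2.53e-08) and miR-125b-5p with 2.11 (SE 0.317, adjusted p = 8.38e-08). miR-100-5p had 1.68 (SE 0.807, adjusted p = 0.0713) and miR-99b-3p 1.64 (SE 1.09, adjusted p = 0.201), so that neither passed the test. The result of miR-100-5p turned on single libraries: its adjusted p by edgeR was 0.0258 without Control replicate 3, 0.0242 without PlaB replicate 1 and 0.0336 without PlaB replicate 3.

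The share of synthesis left in PlaB was computed as in the study, as the mean PlaB rate less the mean Control rate over the mean DMSO rate less the mean Control rate. It was 60.7% ± 7.17 for miR-99b-5p and 46.4% ± 5.96 (SD over 4 experiments) for miR-125a-5p from the SPACA6 locus. It was 36.4% ± 11.3 for miR-99a-5p, 31.6% ± 20.5 for miR-125b-5p and 22.6% ± 47.2 for miR-100-5p from the lncRNA loci, and 17.2% ± 16.5 for miR-99b-3p, the other arm from the SPACA6 locus. The SD is that of the shares within single experiments, whose mean can differ from the printed share, a ratio of means over the libraries. For miR-100-5p the shares within experiments 1 to 4 were -5.36%, 47.5%, -55.9% and 37.7%. The differences between members in the share left were not tested. Ratios of their rates without subtraction of Control were tested instead and are described after the ranks. Within single experiments the share ran from 53.5% to 70.8% for miR-99b-5p, from 40.7% to 53.5% for miR-125a-5p, from 24.2% to 51.1% for miR-99a-5p and from 5.66% to 55.5% for miR-125b-5p. The 2 sparsely converted members spread further, from -0.417% to 32.1% for miR-99b-3p and from -55.9% to 47.5% for miR-100-5p, where a negative share means a PlaB rate below Control.

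Among the 118 labelled miRNAs, those called above Control in DMSO, the median share was 31.8%, with quartiles at 18.9% and 55.9%. miR-99b-5p ranked 93 from the lowest, between miR-10b-5p (58.6%) and miR-27a-3p (60.9%). miR-125a-5p ranked 79, between miR-22-3p (44.7%) and miR-23a-3p (47.5%). Of the 6 members, miR-99b-5p alone was above the upper quartile. miR-99a-5p ranked 69, between miR-130b-5p (35.9%) and miR-27b-3p (37.8%), and miR-125b-5p ranked 59, between miR-126-3p (31.3%) and miR-425-5p (32.0%). miR-125b-5p lay just below the median, and lower stood miR-100-5p at rank 43, between miR-20a-5p (22.5%) and miR-1269a (23.1%), and miR-99b-3p at rank 25, between miR-500a-3p (16.7%) and miR-885-5p (17.6%).

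**Figure D2:**
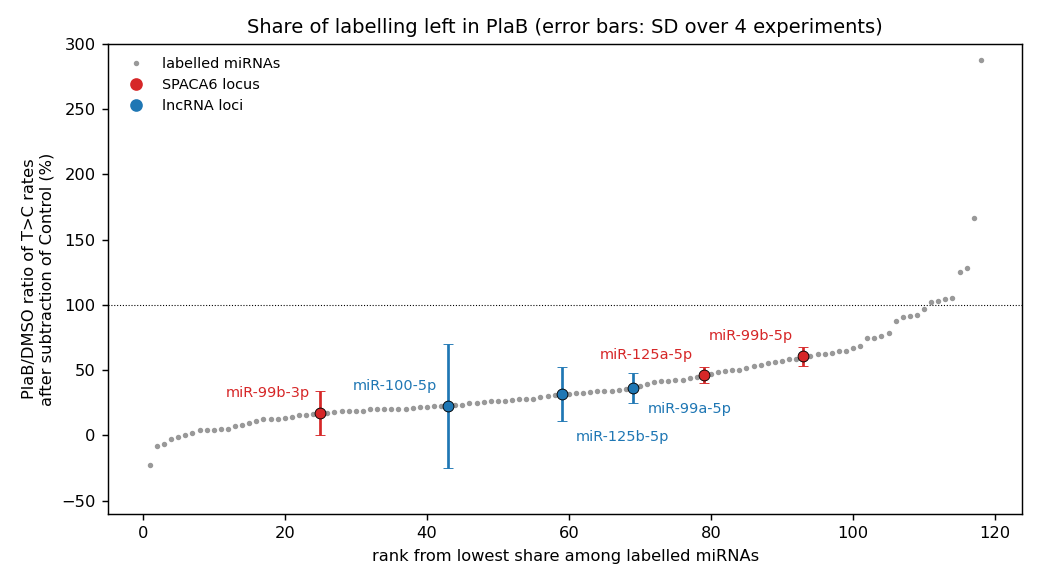
Share of labelling left in PlaB, in percent of the DMSO value after subtraction of Control, for the 118 labelled miRNAs ordered from the lowest share. Members of the SPACA6 locus are red, members of the lncRNA loci blue and other miRNAs grey. Error bars are the SD of the shares within the 4 experiments, drawn around a ratio of means, which can differ from the mean of those shares. miR-99b-5p (60.7%) and miR-125a-5p (46.4%) lie to the right of the lncRNA-hosted members, and miR-99b-3p (17.2%) lies to the left of them.

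Whether the PlaB difference was unequal between paralogs was tested on the ratio of their rates within each library, in which library size cancels, by an exact two-sided permutation of 4 DMSO against 4 PlaB libraries. The smallest p this design can give is 0.0286, and 6 pairs were compared. The log2 ratio of miR-99b-5p over miR-99a-5p was -0.01, 0.29, 0.17 and 0.37 in DMSO and 0.81, 0.48, 1.01 and 0.81 in PlaB. All PlaB libraries stood above all DMSO libraries, with a mean difference of 0.57 (SE 0.136, exact permutation p = 0.0286, adjusted p = 0.0857 over the 6 pairs), equal to a 1.49-fold shift. The rate fell less for miR-99b-5p than for its seed paralog miR-99a-5p in each of the 4 experiments, but the difference did not pass the correction.

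The log2 ratio of miR-99b-5p over miR-100-5p was 0.98, 1.00, 2.08 and 0.50 in DMSO and 4.20, 1.38, 3.83 and 1.07 in PlaB, higher in PlaB in 4 of 4 experiments. The groups overlapped, and the difference of 1.48 had an SE of 0.878 (exact permutation p = 0.171, adjusted p = 0.206). miR-99a-5p over miR-100-5p, the pair that differ by 1 base and by their host lncRNA, gave a difference of 0.91 (SE 0.837, exact permutation p = 0.286, adjusted p = 0.286).

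For the other seed family the log2 ratio of miR-125a-5p over miR-125b-5p was -1.55, -1.93, -1.65 and -1.74 in DMSO and -0.93, -1.19, -0.85 and -2.03 in PlaB. PlaB replicate 4 was the only one not above its DMSO partner. The difference of 0.47 (SE 0.283) had an exact permutation p of 0.171 (adjusted p = 0.206), and without PlaB replicate 4 it was 0.73. The neighbours miR-99b-5p and miR-125a-5p, from the same SPACA6 cluster, had a difference of 0.31 (SE 0.110, exact permutation p = 0.0571, adjusted p = 0.114).

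The 2 arms of the mir-99b hairpin are made from the same precursor. The log2 ratio of miR-99b-5p over miR-99b-3p was -0.38, 0.56, 0.35 and 0.14 in DMSO and 2.62, 1.56, 0.99 and 0.79 in PlaB. The groups did not overlap, and the difference was 1.33 (SE 0.457, exact permutation p = 0.0286, adjusted p = 0.0857), a 2.51-fold shift in 4 of 4 experiments. It rests on the 9 conversions of miR-99b-3p in PlaB. None of the 6 pairs passed the correction.

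The 11 other miRNAs of these hairpins and clusters, the opposite arms and the let-7 members, were tested among all miRNAs that passed edgeR's expression filter, 537 for reads and 503 for conversions. 7 of the 11 were tested. miR-99a-3p, miR-100-3p and let-7c-3p were too low, at a mean of at most 7.60 CPM in any condition, and let-7a-2-3p had no read in any library.

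In read counts, 2 of the 7 were lower in DMSO than in Control and none was higher, where 5.03% of the 537 were called lower. Both were 3p arms of the mir-125b hairpins. miR-125b-2-3p had 276, 174, 258 and 257 CPM in Control and 148, 127, 124.6 and 140 in DMSO, without overlap (log2 fold change -0.82, SE 0.178, edgeR adjusted p = 0.0108). miR-125b-1-3p had 12.6, 12.1, 30.9 and 44.8 CPM in Control and 11.1, 3.66, 6.90 and 5.08 in DMSO (log2 fold change -1.90, SE 0.470, edgeR adjusted p = 0.0236). The first call was lost without DMSO replicate 3 (adjusted p = 0.0552) and the second without Control replicate 3 or 4 or DMSO replicate 2, 3 or 4 (adjusted p from 0.0626 to 0.114).

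miR-125a-3p had 154, 63.9, 117 and 130 CPM in Control and 93.8, 52.5, 50.2 and 66.5 in DMSO, which differ by -0.81 on the log2 scale (SE 0.298, edgeR adjusted p = 0.159). With the replicate block its adjusted p was 0.0105. In PlaB, with 4SU as well, the 3 miR-125 3p arms were lower than in Control, where 6.33% of the 537 were called lower, with log2 fold changes of -1.08 (adjusted p = 0.0431) for miR-125a-3p, -0.98 (adjusted p = 0.00189) for miR-125b-2-3p and -2.31 (adjusted p = 0.00740) for miR-125b-1-3p by edgeR. The call of miR-125a-3p was lost on leaving out any of several libraries, with an adjusted p of up to 0.183. None of the 7 passed edgeR's test between PlaB and DMSO, also with a replicate block (adjusted p of 0.575 or more), 0 had an unadjusted p under 0.05, and their median log2 fold change there was -0.09.

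**Figure D3:**
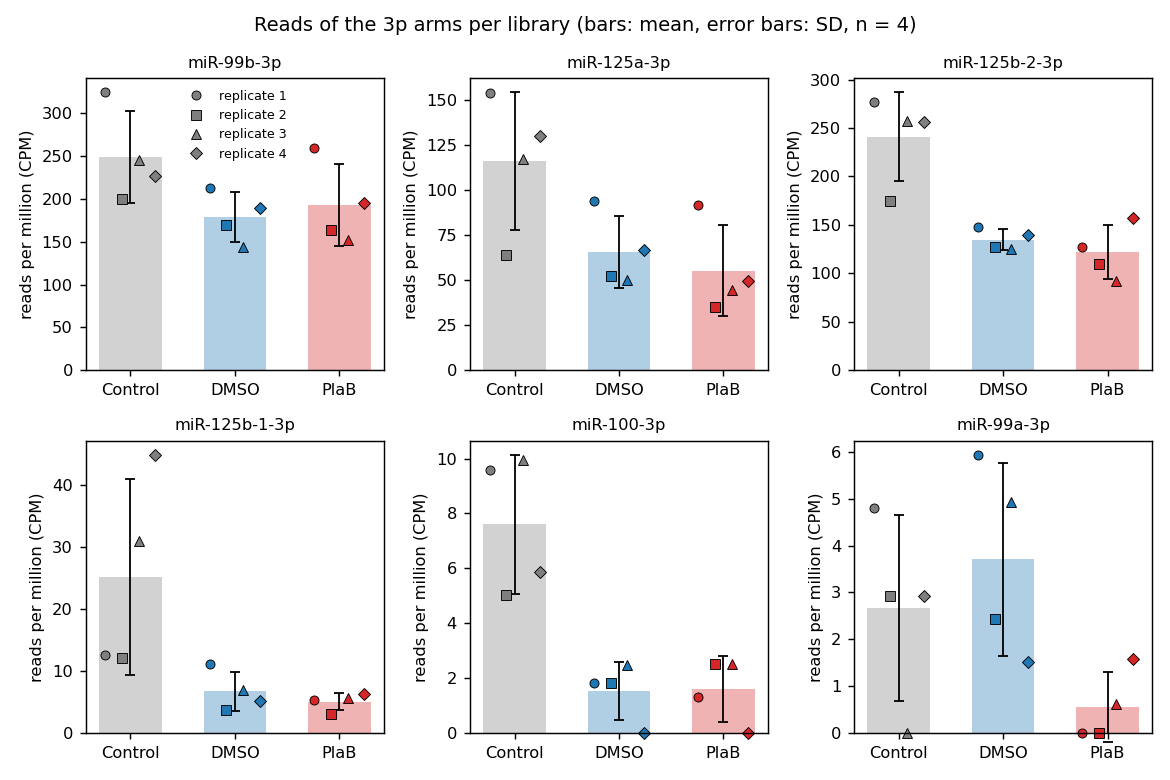
Reads of the 3p arms of the 6 hairpins per library, in CPM, with Control in grey, DMSO in blue and PlaB in red. Bars are means, error bars are SD (n = 4) and symbols mark the replicate number. All 6 arms but miR-99a-3p, which has few reads, have a lower mean in DMSO than in Control, among them miR-125b-2-3p (135 against 241 CPM) and miR-100-3p (1.52 against 7.60 CPM).

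The ratio of the arms within a library carries the same contrast without library size. For mir-99b there were 47.3, 30.2, 37.2 and 37.3 reads of the 3p arm per 1000 reads of the 5p arm in Control and 24.8, 25.003, 22.7 and 31.2 in DMSO. The log2 ratio fell in 4 of 4 experiments, with a difference of -0.54 (SE 0.165, exact permutation p = 0.0571, adjusted p = 0.114 over 4 hairpins). For mir-125a there were 21.6, 9.84, 18.0 and 19.6 per 1000 in Control and 10.3, 7.92, 8.04 and 10.4 in DMSO, a difference of -0.86 (SE 0.276, exact permutation p = 0.0857, adjusted p = 0.114). For mir-100 there were 10.8, 6.29, 10.8 and 6.50 per 1000 in Control and 1.62, 2.31, 3.16 and 0 in DMSO, without overlap, a difference of -2.55 (SE 0.808, exact permutation p = 0.0286, adjusted p = 0.114) that rests on 60 reads in Control and 18 in DMSO. For mir-99a, with no 3p read in Control replicate 3, the difference was 0.65 (SE 1.14, exact permutation p = 0.714), although the ratio was lower in 3 of 4 experiments, and it ran from -0.36 to 1.27 on leaving out single libraries. None passed the correction, and these permutations also leave out the pairing by experiment. Between PlaB and DMSO the arm ratio of mir-99a was lower by the largest amount, from 2.47, 0.870, 1.81 and 0.594 reads per 1000 in DMSO to 0, 0, 0.311 and 0.621 in PlaB, a log2 difference of -2.21 (SE 0.744, exact permutation p = 0.0571, adjusted p = 0.229) that rests on 44 and 4 reads of the 3p arm. The other hairpins differed there by 0.08 for mir-99b (SE 0.152, exact permutation p = 0.543), -0.23 for mir-125a (SE 0.261, exact permutation p = 0.457) and 0.14 for mir-100 (SE 1.17, exact permutation p = 0.800).

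In labelling, 3 of the 7 tested partners were higher in DMSO than in Control, where 33.4% of the 503 were. miR-125a-3p had 0 conversions of 4650 T positions in Control and 46 of 3835 in DMSO. Its pooled DMSO rate was 18.6-fold the Control limit, with 3 conversions over the group as the limit of a count of 0. miR-125b-2-3p had 0 of 7852 and 78 of 6100, with a pooled DMSO rate 33.5-fold that limit. Per T, the DMSO rates of miR-125a-3p were 1.32%, 0.824%, 1.37% and 1.22%, each above that of miR-125a-5p in the same library. Those of miR-125b-2-3p were 1.26%, 1.496%, 1.68% and 0.632% and overlapped those of miR-125b-5p, with replicate 4 below it. Neither difference was tested. The third, let-7c-5p of the MIR99AHG cluster, had 4 conversions of 1621 T in Control and 53 of 2913 in DMSO, with an edgeR adjusted p of 0.0370 and one of 0.0787 with the replicate block. The call was lost without Control replicate 1, 2 or 3 or DMSO replicate 1, 2 or 3 (adjusted p from 0.0638 to 0.130).

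let-7e-5p lies between MIR99B and MIR125A in the same 728 bp and was not called labelled. It had 7 conversions of 15203 T in Control, all in replicate 4, 8 of 25061 in DMSO and 1 of 15704 in PlaB (edgeR adjusted p = 0.997 in DMSO against Control). It was present at 236, 272 and 286 CPM in the means of Control, DMSO and PlaB, above miR-99b-3p in DMSO. In PlaB against DMSO 1 of the 7 was lower, where 12.3% of the 503 were. This was let-7a-5p, which differed by -2.85 on the log2 scale (SE 0.827, edgeR adjusted p = 0.00623). The call was lost without DMSO replicates 1 and 2 together (edgeR adjusted p = 0.0736). Its mean PlaB rate of 0.00616% (8 conversions of 132403 T) lay below the 0.0135% of Control (26 of 157718, 22 of them in replicate 2). Its DMSO rate of 0.0459% (99 of 230900) was not called above Control in the same fit (edgeR adjusted p = 0.0677). Over the 143 miRNAs let-7a-5p was called labelled, with a share left in PlaB of -22.8%. miR-125b-2-3p, with a log2 fold change of -2.39 (SE 0.938), had an edgeR adjusted p of 0.0702, and one of 0.0407 with the replicate block. let-7a-5p has the same mature sequence in MIRLET7A1, MIRLET7A2 and MIRLET7A3, so its reads are not those of the MIR100HG cluster alone. In the 3 conditions 99.7% to 99.8% of its reads were counted as mapping to several places. Its reads and conversions may thus be counted at several loci, and no fit with each read counted once was made for it. miR-125a-3p had 20 conversions of 1875 T in PlaB, of which 13 were in replicate 2, and miR-125b-2-3p had 8 of 3442, all in replicate 2. In PlaB against Control these 2 of the 7 were called higher, where 21.9% of the 503 were. Their pooled PlaB rates were 16.5-fold and 6.08-fold the limit of a count of 0 in Control, without allowance for the spread between libraries. The edgeR adjusted p of miR-125b-2-3p was 0.00414, and 0.0507 with the replicate block, and without PlaB replicate 2 it had no conversion in either condition.

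Most converted reads carried a single T>C conversion. The study's methods state that a filter on mapping integrity restricts mismatches in miRNA reads beyond the set limit on their number. How far this filter kept out reads with several conversions was not tested. In DMSO, miR-99a-5p had 883 conversions in 769 converted reads, 1.15 per read, and ranked 14 of 118 labelled miRNAs, whose median was 1.03. miR-125b-5p had 1.07 per read, with the stated uncertainty in the count of its converted reads, miR-99b-3p 1.05, miR-100-5p 1.04, miR-125a-5p 1.01 and miR-99b-5p 1.00. The latter had 3 more conversions than converted reads, of 1369. miR-125a-5p, with more U residues than miR-99a-5p, thus had fewer conversions per converted read.

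Over the 12 libraries the pattern of log2 CPM of miR-99b-5p was most like that of its neighbour miR-125a-5p (Pearson r = 0.888) and of miR-197-3p (0.818), and that of miR-125a-5p most like miR-99b-5p and miR-10b-5p (0.878). miR-100-5p was most like miR-92a-3p (0.934) and miR-125b-5p (0.903), miR-125b-5p most like miR-217-5p (0.930) and miR-92a-3p (0.918), miR-99a-5p most like miR-106b-5p (0.728) and miR-502-3p (0.721), and miR-99b-3p most like miR-25-3p (0.854) and miR-339-3p (0.803). These values describe 12 libraries that share their experiments and include library-wide shifts such as that of replicate 1.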

How the data were processed

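SLAMseq tables of 12 Huh7 libraries were used, 4 each of Control, DMSO and PlaB, grouped by the sample labels. The authors trimmed the reads with Trim Galore and ran the nf-core workflow for SLAMseq, in which SLAM-DUNK mapped to GRCh38, kept multi-mappers and counted over the coordinates of mature miRNAs. Their deposited counts give, per miRNA, the reads, how many of them were multi-mapping or converted, the number of conversions and the T positions covered. The authors' CPM is the read count scaled by the library's total on miRNAs, and the deposited T>C conversion rate is a fraction, printed here in percent. Both were checked to equal the values recomputed from the deposited counts. The Initial miRNA Dataset (143 miRNAs over 100 CPM in every library and marked for MirGeneDB) follows the study.

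For read counts, edgeR 4.0.16 under R 4.3.3 was used (TMM factors from all miRNAs, one fit of the 3 conditions, quasi-likelihood tests), and conversions went through the same fit with the logarithm of the T coverage as an offset. P-values were adjusted (Benjamini-Hochberg) across those 143, or over all miRNAs passing filterByExpr for hairpin and cluster partners, with a threshold of 0.05. SEs were obtained by dividing a log2 fold change by the square root of its F. Ratios within a library, with 0.5 conversions or reads added, were compared by two-sided exact permutation of 4 against 4 libraries (70 labelings). Other work used Python 3.11.15, numpy 2.4.6, pandas 2.3.3, scipy 1.17.1 and matplotlib 3.10.9. The edgeR steps were tested on simulated data.

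The study describes 4 independent experiments with 3 conditions each, so that replicate numbers mark experiments. Deviations of log2 CPM from the condition mean correlated between libraries of the same number with r from 0.274 to 0.843, and at most 0.287 between different numbers, so the numbers were taken to pair the libraries. Blocked values are printed where they change a call. Alternatives were a replicate block, each library left out, DMSO replicates 1 and 2 left out together, the 8 libraries alone, other filters, RLE factors, DESeq2 1.42.0 and reads with a T>C conversion per read. One alternative, miR-125b-5p counted once, was chosen after seeing the data.

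The members and the lists of partners and markers were chosen with earlier results of these data known. Named miRNAs are the 6 members, partners that passed the test and others of the list of 11 named for their values, the 2 most like in log2 CPM, and the 2 neighbours in the order of the share left in PlaB. The values of let-7e-5p, miR-125a-3p in read counts and the arm reads were chosen for naming after they were seen. Depth is the total read count given in the report, and intervals there cover counting error only.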

Additional observations from a re-analysis of the deposited data

Results flagged for a closer look

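Each member's CPM and T>C rate was examined in each condition, 36 groups of 4 libraries in all, for a library whose gap to the nearest other took a larger part of the range of the group than Dixon's test allows at 95%. There were 5, where chance alone gives about 1 in 20 groups. In CPM, all 3 were replicate 1: miR-125a-5p at 9104 in DMSO replicate 1 and at 7601 in PlaB replicate 1, and miR-100-5p at 1111 in DMSO replicate 1. The DMSO library was taken to combine 3 sequencing runs that include a newly prepared and a further amplified library. The part of this in its values was not tested. In T>C rate, Control replicate 3 of miR-125b-5p stood at 0.196% against 0.0367% to 0.0567% in the other Control libraries, and Control replicate 1 of miR-99a-5p at 0.0598% against 0.0432% to 0.0447%. Without Control replicate 3, the log2 fold change of miR-125b-5p in DMSO against Control was 4.29, against 3.51 with it, by edgeR.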

How the results depend on the processing

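No result changed direction among those called. The 6 members called lower in T>C rate in PlaB than in DMSO became 3 without DMSO replicates 1 and 2 together. They became 3 over all miRNAs passing filterByExpr, where 12.3% of 503 were called lower, and 3 without a filter. On leaving out single libraries they became 4 to 6, where 56 to 70 of the 143 miRNAs were called, against 69 with all libraries. With the replicate block, read counts called 1 member instead of 0 in DMSO against Control. For the replicate block and the settings without DMSO replicates 1 and 2 and without a filter, the share over all miRNAs is not given. A change of calls particular to the members therefore cannot be told from a general one in these settings. Among the partners, 2 read calls in DMSO against Control became 0 to 3 without single libraries and 0 without DMSO replicates 1 and 2, and 1 T>C call in PlaB against DMSO became 2 with the replicate block, 1 to 2 without single libraries and 0 without DMSO replicates 1 and 2. Of the ratios, miR-99b-5p over miR-99a-5p (0.57) ran from 0.50 to 0.67 without single libraries and was 0.51 without DMSO replicates 1 and 2, and the arms of mir-99b (1.33) ran from 0.95 to 1.56 and were 1.25 without that pair. The ratios of miR-99b-5p and miR-99a-5p over miR-100-5p ran from 0.95 to 2.00 and from 0.39 to 1.44. The difference of miR-125a-5p over miR-125b-5p ran from 0.33 to 0.73, and that of miR-99b-5p over miR-125a-5p from 0.24 to 0.37, or 0.41 with Control subtracted (exact permutation p = 0.0286). Arm ratios ran from -1.11 to -0.735 for mir-125a and from -2.96 to -1.80 for mir-100 in DMSO against Control, and from -2.65 to -1.86 for mir-99a in PlaB against DMSO. Paired as a replicate block, the exact permutation by sign flips within 4 experiments cannot go below p = 0.125, the value for 0.57, 1.33 and mir-100 (-2.55). Subtraction of Control gave no value for the 2 ratios with miR-100-5p, where a PlaB rate was below Control. The causes were not tested. Of all alternative values, 405 for whole comparisons and 856 for single miRNAs kept their direction and side of the threshold (or stayed within 1.5 times), 27 and 41 became weaker and 8 and 15 stronger. The PlaB rates of miR-99b-3p and miR-100-5p rest on 9 and 26 conversions.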
